A study of Mus musculus with 6 samples.

Results

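CD39, the enzyme encoded by Entpd1, stood at higher transcript levels in every Visomitin library than in any control library. Entpd1 was called higher, but this call was lost in 8 of 14 alternative settings. None of the 7 other genes of the set that could be tested was called in the fit as reported. With libraries weighted by estimated quality, a setting with many more calls over all genes, Entpd1 was not called. In that setting P2rx4, P2rx7 and P2ry6 were called higher and Adora2b was called lower. The 10 genes described here encode surface enzymes that break down extracellular nucleotides (Entpd1, Nt5e), an ATP-releasing channel (Panx1), receptors for ATP and other nucleotides (P2rx4, P2rx7, P2ry2, P2ry6, P2ry12) and adenosine receptors (Adora2a, Adora2b). They are 10 of 57180 gene identifiers in the table. The set was chosen on gene function with the Visomitin minus control differences of these same libraries already known, so these genes' values are a description, are given without p-values and support no claim about the set. Expression was measured by RNA sequencing in wild-type mouse bone marrow-derived macrophages, primary cells able to form osteoclasts by fusion, after 5 days in osteoclast-inducing culture. The libraries form 2 groups of 3: Visomitin 1 to 3 were cultured with Visomitin, a plastoquinone antioxidant that is drawn into mitochondria, and control 1 to 3 without it. The labels state neither its dose nor whether the libraries came from separate mice or cultures; p-values therefore measure only library-to-library spread, and this may be technical.

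Purinergic signalling begins when ATP leaves a cell, for example through pannexin channels. Extracellular ATP opens P2X receptors, which are cation channels, and ATP, ADP, UTP or UDP act on P2Y receptors, which couple to G proteins. CD39 cuts ATP and ADP to AMP, CD73 (Nt5e) cuts AMP to adenosine, and adenosine acts on receptors that raise or lower cyclic AMP. In the macrophage lineage P2X7 is known for its link to the inflammasome, and CD39 for limiting the supply of ATP to such receptors.

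Levels are in TPM, a share of a library's transcripts corrected for gene length, which can be compared between genes. TPM do not record how deeply a library was sequenced, and that depth is unknown here. Per library, 11551 to 11821 genes were at 1 TPM or more. Macrophage identity was checked with 10 marker genes, all of which were detected in every library. Their summed level was 42208 to 47429 TPM with Visomitin and 36532 to 40871 TPM in control, most of it Lyz2. Of the 10, Mertk was called higher and 9 were not called, among them Cd68, at 1628 ± 112 TPM with Visomitin and 1870 ± 57.0 TPM in control, and Fcgr1, at 6.56 ± 1.66 TPM with Visomitin and 7.81 ± 1.19 TPM in control (SD, n = 3 each). The 10 osteoclast markers, among them Acp5, Ctsk and Dcstamp, were all called lower, with a summed level of 2928 to 3521 TPM with Visomitin and 11141 to 12097 TPM in control. In bulk RNA, fewer cells of a type and less RNA per cell cannot be told apart, and the part of this shift in the values below was not tested. A call here is an adjusted p under 0.05 in limma's fit over the 11753 genes that reached 1 TPM in 3 or more libraries. Differences are Visomitin minus control of log2(TPM + 1), a scale on which changes of low genes come out too small.

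Of the 10 genes, 8 passed the filter on low values, and 2, Nt5e and Adora2a, did not. Among the 8, 1 gene (Entpd1) was called higher and 0 were called lower. Over all tested genes 835, or 7.10%, were called, 2.08% higher and 5.03% lower. The group ranges of 6 of the 8 did not overlap, 5 of them higher and 1 lower with Visomitin; over all tested genes this held for 30.4%. The median difference of the 8 was 0.26, beside -0.03 over all tested genes. Because the genes were proposed with these differences known, nothing is read from these counts.

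**Figure D1:**
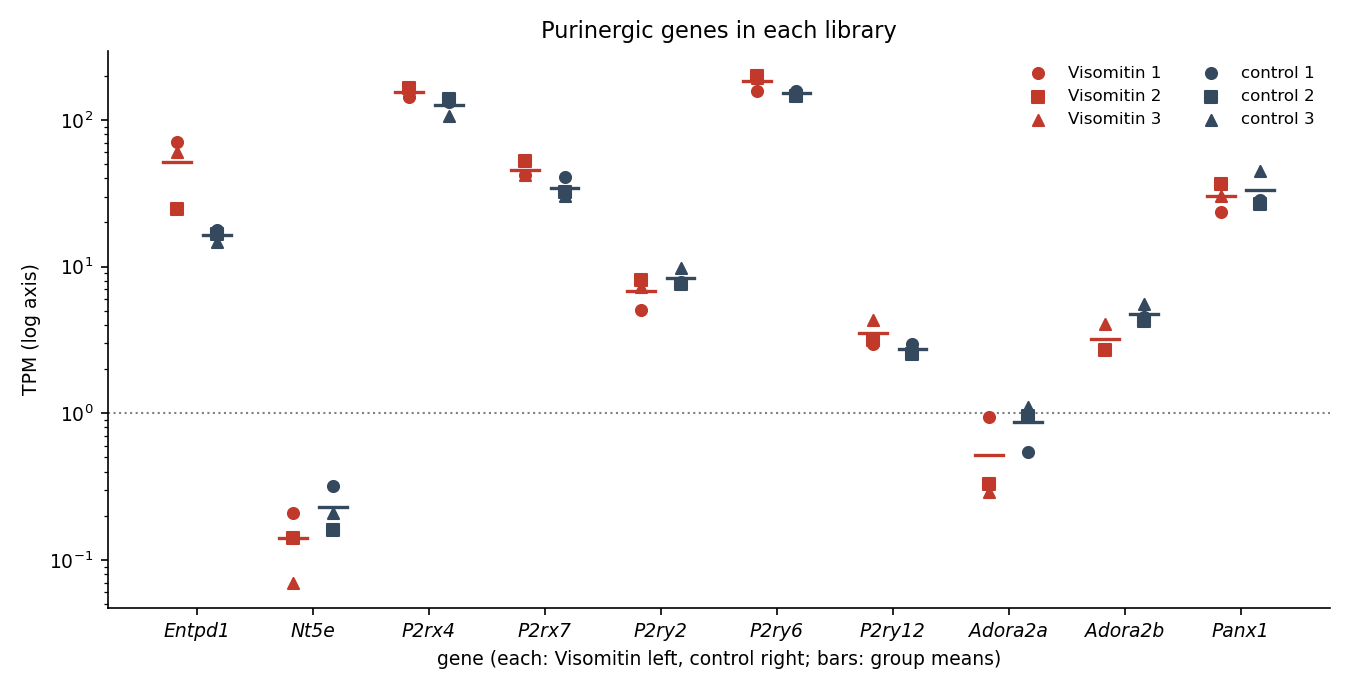
Levels of the 10 genes in TPM on a log axis, with Visomitin libraries on the left of each pair and control libraries on the right; symbols mark the library number, bars the group means, and the dotted line 1 TPM. Entpd1 is at 24.6 to 70.7 TPM with Visomitin and at 14.8 to 17.8 TPM in control, while Nt5e stays below 1 TPM in all 6 libraries.

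Entpd1 (ENSMUSG00000048120, chromosome 19) encodes CD39, the main ATP- and ADP-cleaving enzyme of the leukocyte surface. It was at 70.7, 24.6 and 60.1 TPM in Visomitin 1, 2 and 3, against 17.8, 16.6 and 14.8 TPM in control 1, 2 and 3. The groups did not overlap, but Visomitin 2 lay much nearer to the controls than the other two Visomitin libraries did. Relative to the control mean, Entpd1 was 4.31-fold in Visomitin 1, 1.497-fold in Visomitin 2 and 3.66-fold in Visomitin 3. The mean was 51.8 ± 24.2 TPM with Visomitin and 16.4 ± 1.51 TPM in control (SD, n = 3 each), and the log2 difference was 1.47 (SE 0.33). The coefficient of variation was 46.7% among the Visomitin libraries and 9.22% among the controls.

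The size of the Entpd1 difference depended on which libraries were used. It was 1.19 without Visomitin 1, 1.93 without Visomitin 2, 1.30 without Visomitin 3, 1.53 without control 1, 1.48 without control 2 and 1.40 without control 3. Of these 6 fits Entpd1 was called only in the one without Visomitin 2. When libraries were weighted by their estimated quality (array weights), the difference was 0.79 and not called. It was also not called without a filter on low values or without the variance trend, and stayed called with the other pseudocounts, both scalings and the replicate block. Over all tested genes 244 were called higher as reported, 73 with no filter and 168 without the variance trend. That count was 65 to 130 without Visomitin 3 or any one control, and 64 without Visomitin 2. It was 420 without Visomitin 1 and 1263 with array weights. All 14 alternatives gave a positive Entpd1 difference, which the separate group ranges largely fix in advance, so this adds no support.

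**Figure D2:**
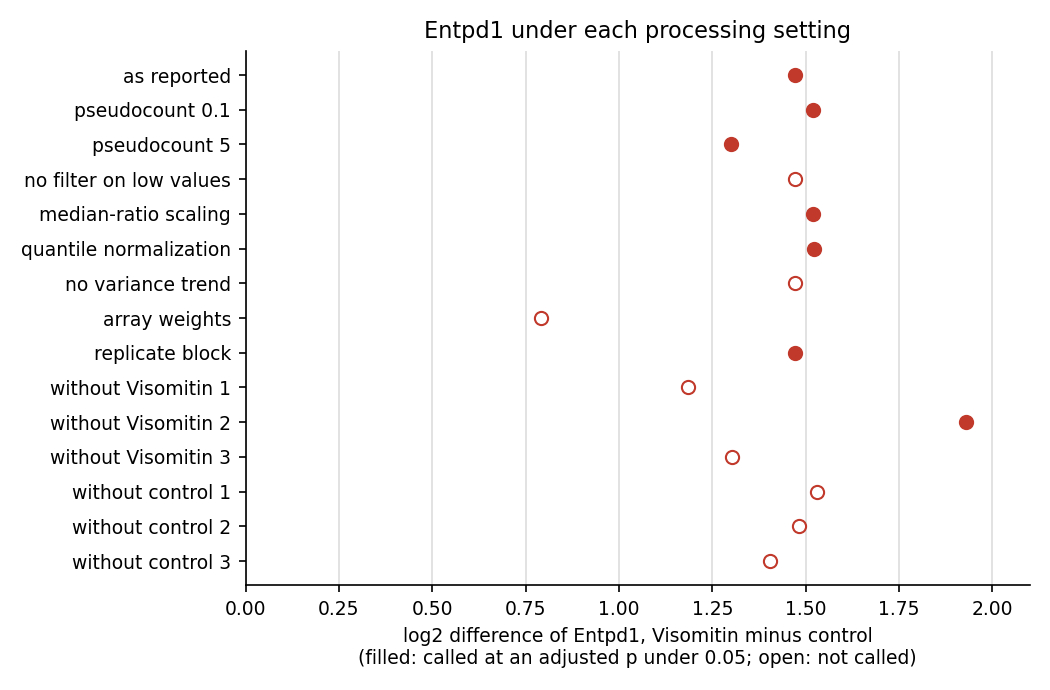
The log2 difference of Entpd1, Visomitin minus control, as reported (1.47) and under 14 alternatives, 1 row each. Filled points were called in the fit over all genes and open points were not; the values span 0.79 with array weights to 1.93 without Visomitin 2.

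RefSeq places 2 transcription starts in Entpd1, 47404 bases apart, and the table holds 1 value per gene, so it does not show which start the Entpd1 transcripts came from. Both promoter windows, 250 bases before to 50 after the start, are shown because Entpd1 has the widest difference of the 8 tested genes of the set. They lie on the plus strand at chr19:40612116-40612415 and chr19:40659520-40659819 (GRCm38.p6); the build behind the deposited values was not given in the sources used here. Capitals mark each match, on either strand, to the motifs named after the sequences.
Entpd1 upstream start: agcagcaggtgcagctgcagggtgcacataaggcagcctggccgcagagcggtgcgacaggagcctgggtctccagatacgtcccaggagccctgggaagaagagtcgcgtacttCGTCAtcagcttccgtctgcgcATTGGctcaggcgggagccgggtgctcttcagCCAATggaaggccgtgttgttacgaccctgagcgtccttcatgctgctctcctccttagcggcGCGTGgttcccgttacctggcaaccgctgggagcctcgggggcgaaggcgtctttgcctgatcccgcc
Entpd1 downstream start: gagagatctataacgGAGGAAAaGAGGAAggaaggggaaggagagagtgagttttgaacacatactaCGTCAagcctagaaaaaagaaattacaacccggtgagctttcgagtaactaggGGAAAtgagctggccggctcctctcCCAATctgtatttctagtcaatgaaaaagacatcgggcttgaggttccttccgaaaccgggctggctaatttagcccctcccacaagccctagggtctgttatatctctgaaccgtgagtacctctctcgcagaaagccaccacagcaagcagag
The upstream window is rich in G and C (64.0%, with 23 CG dinucleotides), against medians of 52.7% and 7 over 32851 mouse windows. The downstream window is below the median in G and C (48.7%) and above it in CG dinucleotides (10). Both hold the CREB and ATF core TGACG 1 time, read on the minus strand at base 116 of the upstream and base 68 of the downstream window; 20.8% of all windows hold it. CCAAT occurs 2 times upstream and 1 time downstream (37.4% of windows), and GCGTG, the core shared by hypoxia and AHR elements, 1 time upstream (32.4%). Only the downstream window of this pair holds the PU.1 sequence GAGGAA (28.3%) and the NFAT core GGAAA (61.3%), 2 matches each, of which 1 of each overlap. Neither window contains the STAT sequence TTCNNNGAA (8.30%), the GC box GGGCGG (35.7%), the AP-1 sequence TGANTCA (7.81%) or the ATF4 sequence TGATGNAA (3.97%). A match is a description of these letters and not a binding site.

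The other surface enzyme, Nt5e (CD73), which turns AMP into adenosine, was at 0.21, 0.14 and 0.07 TPM in Visomitin 1 to 3 and at 0.32, 0.16 and 0.21 TPM in control 1 to 3. These levels are under 1 TPM in all libraries and the groups overlap. In each library Entpd1 was at least 55.7 times the level of Nt5e.

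Markers of other cells known to carry CD39 were mostly low, with exceptions in each list. Of the T cell list, Cd3e and Cd8a were listed at 0 in all libraries and Foxp3 reached 0.04 TPM; Cd4, which macrophages can also express, gave nearly all of the list's sum of 7.92 to 13.6 TPM with Visomitin and 5.76 to 10.5 TPM in control. Of the B cell list, Cd79a and Pax5 were listed at 0. The sum, nearly all of it Cd79b, was 0.80 to 1.65 TPM with Visomitin and 0.30 to 0.51 TPM in control, higher with Visomitin and without overlap. Of the endothelial list, Pecam1 and Tek were at most 0.72 and 0.06 TPM, and Kdr and Cdh5 reached 1.61 and 1.15 TPM. The sum, most of it Vwf, was 10.6 to 14.3 TPM with Visomitin and 10.2 to 17.5 TPM in control. The part of such cells in the Entpd1 values was not tested. Gm8783, a pseudogene inside Entpd1 on the same strand, was at 3.05, 4.01 and 5.01 TPM with Visomitin and at 7.88, 4.55 and 5.52 TPM in control.

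The 5 genes whose log2 levels followed Entpd1 most closely over the 6 libraries were Yaf2 (Pearson r = 0.992), Tmem203 (0.980), Bst1 (0.979), Knstrn (0.979) and Ppdpf (0.977). The correlation is given as a description, since the 6 points share 2 groups. Bst1 was at 58.5, 48.3 and 56.2 TPM with Visomitin and at 42.1, 40.5 and 38.3 TPM in control. The differences of these genes were 0.15 to 0.42, far below that of Entpd1, and Bst1 was the one of the 5 that was called.

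Panx1 (chromosome 9), the pannexin channel through which ATP leaves cells, was at 23.7, 36.8 and 30.3 TPM in Visomitin 1 to 3, against 28.3, 26.9 and 44.7 TPM in control 1 to 3. The groups overlap, and control 3 held the highest value. Its difference was -0.12 (SE 0.22), and it was 0.11 without control 3, 0.04 without Visomitin 1 and 0.20 with array weights. Control 3 also had the most stromal transcript: the 8 stromal markers summed to 80.8, 122 and 167 TPM in Visomitin 1 to 3, against 216, 110 and 333 TPM in control 1 to 3, with no member listed at 0 throughout. Its part in the Panx1 value was not tested.

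P2rx4 (chromosome 5), an ATP-gated channel of plasma membrane and lysosomes, was among the most abundant genes of the set, at 143, 165 and 156 TPM in Visomitin 1 to 3, against 133, 139 and 107 TPM in control 1 to 3. The groups were close but did not overlap, with control 3 the lowest. The means were 154 ± 10.9 TPM with Visomitin and 126 ± 17.2 TPM in control (SD, n = 3 each), a difference of 0.30 (SE 0.11) that was 0.18 without control 3. Its neighbour on the chromosome, P2rx7, which encodes the channel that opens at high ATP, was at 41.8, 52.1 and 41.9 TPM with Visomitin, against 40.5, 32.5 and 30.4 TPM in control. The lowest Visomitin library and the highest control differed by little. P2rx7 averaged 45.3 ± 5.92 TPM with Visomitin and 34.5 ± 5.37 TPM in control, a difference of 0.39 (SE 0.14) that ranged from 0.28 without Visomitin 2 to 0.51 without control 1. Neither gene was called, and both were called higher with array weights. Over all tested genes that setting called 1263 higher and 1572 lower, beside 244 and 591 as reported.

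P2ry6 (chromosome 7), the receptor for UDP, had the highest mean level of the set in both groups. It was at 158, 199 and 193 TPM in Visomitin 1 to 3, against 158, 145 and 154 TPM in control 1 to 3. Visomitin 1 was level with the highest control library, and the other Visomitin libraries lay above all controls. The means were 183 ± 21.997 TPM with Visomitin and 152 ± 6.67 TPM in control (SD, n = 3 each), a difference of 0.26 (SE 0.10). Gm44545, which overlaps P2ry6 on the opposite strand, was at 0.59, 0.29 and 0.62 TPM with Visomitin and listed at 0 in all controls. It did not pass the filter, and its part in the P2ry6 values was not tested. P2ry6 was not called as reported, but was called higher without Visomitin 1 (0.36), after median-ratio scaling (0.31), after quantile normalization (0.34) and with array weights (0.37). Each of these settings also called more genes higher over all tested genes than the fit as reported. P2ry2, the neighbouring gene, whose receptor responds to ATP and UTP, was at 5.02, 8.06 and 7.30 TPM with Visomitin, against 7.79, 7.59 and 9.85 TPM in control. These ranges overlap, and the difference of -0.29 (SE 0.18) was -0.11 without Visomitin 1, -0.18 without control 3 and -0.05 with array weights.

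P2ry12 (chromosome 3), the ADP receptor best known from platelets and microglia, was low, at 2.98, 3.17 and 4.34 TPM in Visomitin 1 to 3, against 2.97, 2.55 and 2.64 TPM in control 1 to 3. Visomitin 1 was level with the highest control, and the difference was 0.26 (SE 0.16; 0.13 without Visomitin 3). The gene lies inside Med12l on the opposite strand, which was listed at 0.07 TPM or less. Of the platelet list, Gp9 was listed at 0 in all libraries and Itga2b reached 0.44 TPM. Its sum was 349 to 482 TPM with Visomitin and 332 to 454 TPM in control, nearly all of it Pf4, a gene that macrophages can also express.

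Adora2b (chromosome 11), a low-affinity adenosine receptor that raises cyclic AMP, was at 2.76, 2.70 and 4.09 TPM in Visomitin 1 to 3, against 4.53, 4.26 and 5.54 TPM in control 1 to 3. The groups did not overlap, with Visomitin below control, though Visomitin 3 came close to control 2. Its means were 3.18 ± 0.79 TPM with Visomitin and 4.78 ± 0.67 TPM in control (SD, n = 3 each). The difference was -0.48 (SE 0.18). Adora2b was not called as reported and was called lower with array weights (-0.53), which called 1572 genes lower over all tested genes, beside 591 as reported. Adora2a (chromosome 10), the high-affinity receptor of the pair, was at 0.94, 0.33 and 0.29 TPM with Visomitin, against 0.54, 0.96 and 1.10 TPM in control. Only control 3 reached 1 TPM, and the groups overlap.

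**Figure D3:**
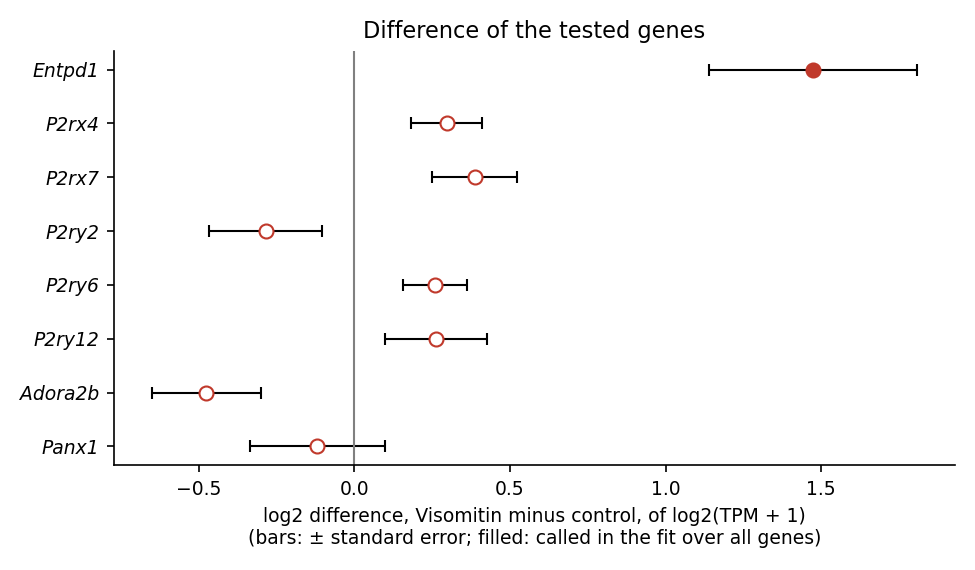
The log2 difference, Visomitin minus control, of the 8 genes that passed the filter, with bars of ± 1 standard error; the filled point was called in the fit over all genes. Entpd1 is at 1.47 and the other 7 genes lie between -0.48 and 0.39.

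By mean TPM, the order of the set in control was P2ry6, P2rx4, P2rx7, Panx1, Entpd1, P2ry2, Adora2b, P2ry12, Adora2a and Nt5e. In control, neighbours in this order had ranges that did not overlap, except P2rx7 and Panx1. In the Visomitin libraries, 3 neighbouring pairs overlapped, P2ry6 with P2rx4, Panx1 with Entpd1 and Adora2b with P2ry12. Entpd1 was above both Panx1 and P2rx7 in Visomitin 1 and 3, and below both in Visomitin 2 and in all 3 control libraries.

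The wider purinergic pathway was followed with 100 other genes in 9 lists. Of these 70 passed the filter, 2 rose, 4 fell and 64 were not called, so that 8.57% were called beside 7.10% of all tested genes. Their median difference was -0.05, beside -0.03 over all tested genes. The lists were put together by function with results from these libraries already known.

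Of the other surface enzymes, 3 of 10 were tested and 0 were called. The most abundant was Acpp, an acid phosphatase that can cleave AMP, at 10.8 ± 1.78 TPM with Visomitin and 10.1 ± 1.19 TPM in control (SD, n = 3 each; difference 0.09, limma adjusted p = 0.76). The list of intracellular relatives of CD39, to which the unrelated nucleotidase Cant1 was added, had 6 genes, all tested and 0 called, with a median of -0.14. Cant1, an enzyme of the secretory pathway, was the most abundant at 62.1 ± 5.17 TPM with Visomitin and 64.2 ± 0.72 TPM in control. Entpd4 and Entpd4b are near-identical copies whose values are uncertain. Entpd6, named after its values were seen, was at 7.93, 8.49 and 9.99 TPM in Visomitin 1 to 3, against 12.2, 11.7 and 13.5 TPM in control 1 to 3. The groups did not overlap, and the difference of -0.46 (SE 0.12) missed the threshold (limma adjusted p = 0.063; 0.012 to 0.19 over the alternatives). It passed after median-ratio scaling (adjusted p = 0.039), after quantile normalization (0.041) and with array weights (0.012). Each of these settings also called more genes lower over all tested genes than the fit as reported.

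Among the other P2X and P2Y receptors, 3 of 11 were tested and 0 were called. P2ry14, a receptor for UDP-sugars, was at 30.6, 29.1 and 26.8 TPM in Visomitin 1 to 3, against 23.0, 25.8 and 16.1 TPM in control 1 to 3. The groups did not overlap, and the difference of 0.42 (limma adjusted p = 0.16) was 0.23 without control 3. P2rx5, an ATP-gated channel named after its values were seen, was at 3.84, 4.86 and 2.76 TPM with Visomitin, against 7.38, 8.92 and 5.66 TPM in control. It missed the threshold (-0.79, SE 0.21, limma adjusted p = 0.058) and passed with the replicate block (adjusted p = 0.015) or array weights (0.034). Both settings also called more genes lower over all tested genes than the fit as reported. Over all alternatives the adjusted p of P2rx5 was 0.015 to 0.19. Neither of the other adenosine receptors passed the filter; the higher of them, Adora3, was at 0.27 ± 0.10 TPM with Visomitin and 0.21 ± 0.08 TPM in control.

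Other routes of ATP release and the handling of adenosine showed no call in the fit as reported. Of the 12 release genes 8 were tested, with 4 above 0 and 4 below; Lrrc8d, a subunit of a volume-regulated channel, was the most abundant at 34.8 ± 4.41 TPM with Visomitin and 37.0 ± 1.45 TPM in control (SD, n = 3 each; limma adjusted p = 0.65). Of the 12 genes of adenosine uptake and use 8 were tested, with 5 above 0 and 3 below. Slc29a1, the equilibrative nucleoside transporter, was at 156 ± 13.3 TPM with Visomitin and 150 ± 6.01 TPM in control (adjusted p = 0.76). With array weights Adk (limma adjusted p = 0.033) and Ahcy (0.035) were called lower and Slc29a3 (0.043) higher, all named after their values were seen. Over all tested genes that setting called 1263 higher and 1572 lower, beside 244 and 591 in the fit as reported.

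The 6 pathway calls came from 3 lists, put together with results known, so nothing is read from the counts in each. Of 11 tested enzymes of intracellular AMP and nucleotides 2 fell (18.2% called, beside 7.10% of all tested genes). Ak1, an adenylate kinase, which balances ATP, ADP and AMP, was 1 of them, at 16.3, 23.4 and 19.4 TPM in Visomitin 1 to 3, against 38.4, 26.1 and 40.4 TPM in control 1 to 3, without overlap. The difference was -0.79 (SE 0.19, limma adjusted p = 0.043); over the alternatives the adjusted p was 0.018 to 0.14, and the call was lost without control 1, control 3 or any one Visomitin library, without the variance trend and when low genes were kept in.

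On the route from P2X7 to the inflammasome, 7 of 8 genes were tested, 2 rose, 0 fell and 5 were not called. That is 28.6% called, beside 7.10% of all tested genes. Il18, the precursor of a cytokine that caspase-1 activates, was at 11.2, 10.6 and 9.01 TPM in Visomitin 1 to 3, against 5.50, 5.52 and 5.04 TPM in control 1 to 3. The groups were well apart, the difference was 0.82 (SE 0.13, limma adjusted p = 0.0083), and all 14 alternatives called it (0.0011 to 0.041). Nlrp3, the sensor of the inflammasome, was at 19.2, 18.8 and 19.7 TPM with Visomitin, against 12.3, 12.1 and 14.9 TPM in control (0.53, SE 0.11, adjusted p = 0.031; 0.0041 to 0.11). It lost its call without control 1, control 2, Visomitin 2 or Visomitin 3, and with no filter on low values. Il1b, the other cytokine precursor of the list, did not pass the filter.

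Of 24 tested G proteins and second messenger genes 2 fell and 0 rose (8.33% called, near the 7.10% of all tested genes). Adcy3, an adenylyl cyclase, which makes cyclic AMP, fell to 6.96, 8.33 and 8.50 TPM in Visomitin 1 to 3, against 23.2, 27.0 and 25.3 TPM in control 1 to 3. Its difference was -1.55 (SE 0.12, limma adjusted p = 0.00021), and all 14 alternatives called it (3.00e-05 to 0.0034). Plcb4, a phospholipase C, was low, at 0.77, 0.59 and 0.99 TPM with Visomitin, against 2.09, 2.25 and 1.96 TPM in control (-0.80, SE 0.17, adjusted p = 0.027; 0.0037 to 0.11). That call was lost without any one control library, without Visomitin 2 and when low genes were kept in. Plcb4 passed the filter on low values only through the control libraries, where it was higher, so its call is given as a description. The Plcb4 difference was -1.34 with a pseudocount of 0.1 and -0.30 with a pseudocount of 5. The osteoclast markers fell in the same libraries, and their part in these differences was not tested.

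**Figure D4:**
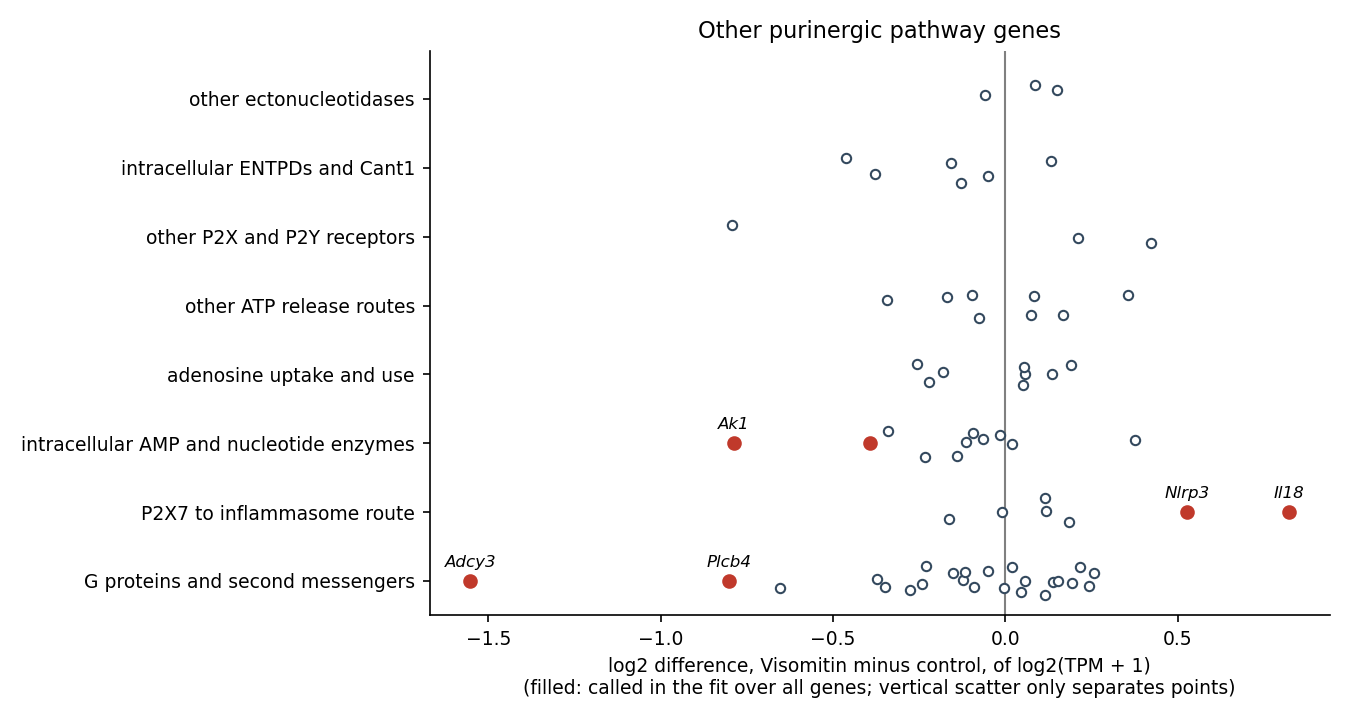
The log2 difference, Visomitin minus control, of the 70 tested pathway genes by list; filled points were called in the fit over all genes, and 5 of the 6 are named. Il18 and Nlrp3 lie above 0, Adcy3, Plcb4 and Ak1 below, and the other 64 genes were not called.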

How the data were processed

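The deposited values are TPM, computed by the authors for each gene; every library's column sums to 1000000. The submitters' processing notes name fastp, HISAT2 and StringTie; their roles and versions, the genome build, the annotation and any use of strand in counting were not given in the sources used here. Per the labels, libraries were stranded mRNA. Symbols came from a reference table and were found for 51884 of 57180 identifiers, including all 10 genes described. TPM keep no counts, so no counting interval can be given.

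Values were transformed to log2(TPM + 1) and fitted with limma 3.58.1 (R 4.3.3; lmFit, eBayes with a trend) with group as the only term, on the 11753 genes that reached 1 TPM in 3 or more libraries. Tests are two-sided, with Benjamini-Hochberg adjustment over all tested genes at 0.05. The fit was run on simulated data with independent noise and the same spread in both groups. That run does not cover library-wide shifts or unequal spread such as that of Entpd1. At most 0.391% of tested genes had identical values in a pair of libraries. Promoter windows are RefSeq's (GRCm38.p6), found for 8 of the 10 genes. The genes, lists and rules were chosen with earlier results of these data known. Pathway genes are named if called, up to 4 per list by p, or else as the most abundant of the list; genes like Entpd1 by Pearson correlation among genes with a mean of at least 5 TPM in the higher group, leaving out predicted genes. Other genes are named as chosen later. The values of 1 called pathway gene and of 2 marker genes are not reported here. The 14 alternatives are listed in the closing section.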

Additional observations from a re-analysis of the deposited data

How the results depend on the processing

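Over all tested genes 244 were called higher and 591 lower, and the 14 alternatives moved these counts. With no filter on low values they were 73 and 308, 496 and 674 after median-ratio scaling. Quantile normalization gave 559 and 651, array weights 1263 and 1572. With 1 library left out they spanned 64 to 420 higher and 244 to 561 lower: 420 and 561 without Visomitin 1, 64 and 304 without Visomitin 2, 130 and 559 without Visomitin 3, 65 and 244 without control 1, 108 and 330 without control 2, 73 and 289 without control 3. The cause of these shifts was not tested, and such fits have fewer residual degrees of freedom. Of the 10 genes described, 1 was called higher and 0 lower. The count was 0 higher with no filter or no variance trend, 2 after either scaling (Entpd1 and P2ry6) and 3 higher and 1 lower with array weights (P2rx4, P2rx7 and P2ry6; Adora2b); with 1 library left out it spanned 0 to 1 higher. Of the other pathway genes 2 were called higher and 4 lower. This was 1 and 2 with no filter, 4 and 5 after median-ratio scaling, 2 and 2 without the variance trend and 6 and 10 with array weights, and spanned 1 to 5 and 1 to 3 with 1 library left out. Pseudocounts of 0.1 and 5 kept all these counts within 1.5 times. With the library number as a replicate block, 308 genes were called higher and 799 lower, 1 and 0 of the genes described and 2 and 6 of the pathway. Residual correlations of same-numbered libraries were 0.046, 0.020 and 0.17, and the labels state no pairing. Among the 8 tested genes described, Panx1 changed sign between settings and the others did not. TPM keep no depth, so low genes such as Nt5e, Adora2a and P2ry12 have an unknown counting error.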
